A study of Mus musculus with 30 samples.

Results

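Gene expression in light-stimulated calcaneus, the heel bone of the mouse, was compared between day 12 (3 libraries) and day 5 (3 libraries) of the stimulation series. The 6 libraries were chosen by their labels out of 30 samples of the series, which also covers the Achilles tendon, and all 18851 genes that passed a count filter were described. All groups used here are calcaneus, labelled Acta1,Ai32 for genotype. The Ai32 allele encodes channelrhodopsin fused to a yellow fluorescent protein and depends on Cre. Acta1, skeletal muscle actin, is a gene of muscle fibres, and the labels do not say how it drives Cre. Channelrhodopsin is a light-gated cation channel, so that light on muscle that carries it makes the muscle contract and load the tendon and the bone it pulls on. The stimulated groups were labelled 5-day stim and 12-day stim. The unstimulated groups at day 5 and day 12 (3 samples each) and the naive group at day 0 (3 samples), which carry the same genotype label, served as reference. Neither the age and sex of the mice nor the light dose is in the labels used here. The titles call the stimulated samples controls, and the treatment label was taken for their group. The labels do not state that each replicate is its own animal. The p-values therefore cover the variation among these libraries, technical variation possibly included.

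Bone is laid down by osteoblasts, which secrete a matrix rich in type I collagen and then mineralise it, and is resorbed by osteoclasts, large cells of the macrophage lineage that dissolve mineral with acid and degrade collagen with cathepsin K. Osteoblasts that become buried in the matrix turn into osteocytes, the cells regarded as the main sensors of load in bone. Wnt, BMP, Notch and hedgehog signals act on the osteoblast lineage, and loading is known to favour bone formation through Wnt signalling in particular. The Achilles tendon is anchored to the calcaneus through a fibrocartilage insertion, so that tendon, cartilage, muscle, marrow and nerve can all be part of a dissected sample.

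The stimulated bone libraries held 19255983 to 24798436 gene counts each. Levels are given in CPM, the counts of a gene scaled to a common library size by TMM. They are not corrected for gene length and are compared only within a gene. A score is the mean log2 CPM of a list. The libraries carried the defining genes of bone: the 25 osteoblast genes took 11.4% to 12.01% of the counts at day 5 and 7.25% to 9.61% at day 12. Muscle fibre genes took 0.812% to 3.07% and 1.64% to 5.15%, erythroid genes 1.31% to 2.74% and 0.695% to 2.10%, and tendon fibroblast genes 0.443% to 0.48% and 0.569% to 0.829%. Within the groups, day 5 replicate 2 was highest in Schwann cell genes and day 12 replicate 1 in osteoclast and megakaryocyte genes, and their values are given beside the results they touch. Among the reference libraries, naive replicate 3 stood apart on the first principal component. Replicates 1 and 2 of the unstimulated day 5 group were unusually close, and are called near-identical here. They differed beyond sampling noise (chi-squared p under 0.05) in 12.4% of genes, beside 38.8% to 59.1% for other pairs within groups. They were thus not exact copies, but were counted as 1 sample, which left 14 libraries and 2 in that group. In whole tissue, fewer cells of a type and less RNA per cell cannot be told apart.

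**Figure D1:**
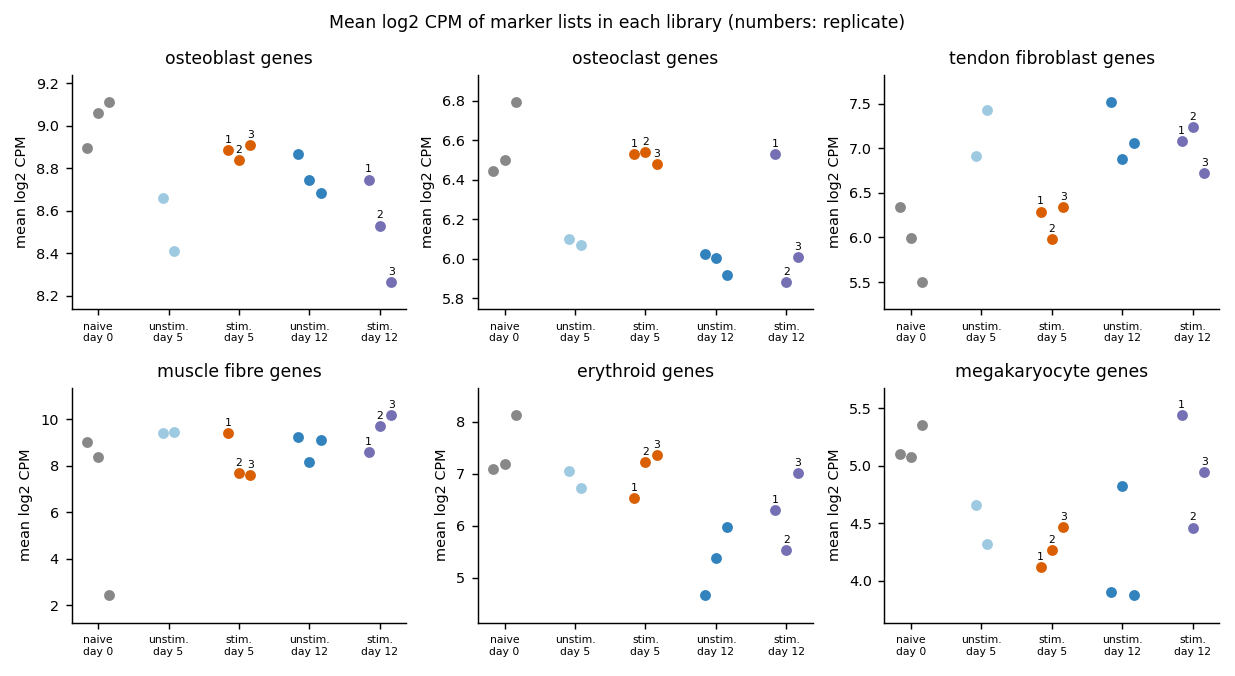
Mean log2 CPM (vertical axis) of 6 marker lists in each calcaneus library, by group; each point is 1 library and the numbers are replicates of the stimulated groups. The 3 osteoblast scores of stimulated bone at day 12 lie below those at day 5, the 3 tendon scores lie above, and the muscle scores of the 2 days overlap.

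No gene passed the test between day 12 and day 5 in stimulated bone: 0 of 18851 genes (0%) had an adjusted p under 0.05 in edgeR's quasi-likelihood test with Benjamini-Hochberg adjustment. Its adjusted p-values are given throughout, and the smallest was 0.107. At an unadjusted p under 0.05 there were 1987 genes (10.5%), of which 858 (4.55%) were higher and 1129 (5.99%) lower at day 12. DESeq2, run on the same libraries as an alternative, called 38 genes higher (0.244% of 15558 with an adjusted p) and 85 lower (0.546%). In 1196 genes (6.34%) all 3 libraries at day 12 lay above all 3 at day 5, and in 1695 (8.99%) they lay below. Genes of either kind are called separated here, and these shares are the background for the counts of separated genes given below for each list. With 1 of the 6 libraries left out, 8.86% to 14.5% of all genes were separated higher and 12.1% to 16.1% lower, and many list counts moved with a single library, as given beside them. The median log2 fold change of all genes was 0.01, and 51.2% of genes stood above 0. All fold changes are day 12 over day 5, with ± their standard error, and since no gene passed, the genes below are described by their values.

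**Figure D2:**
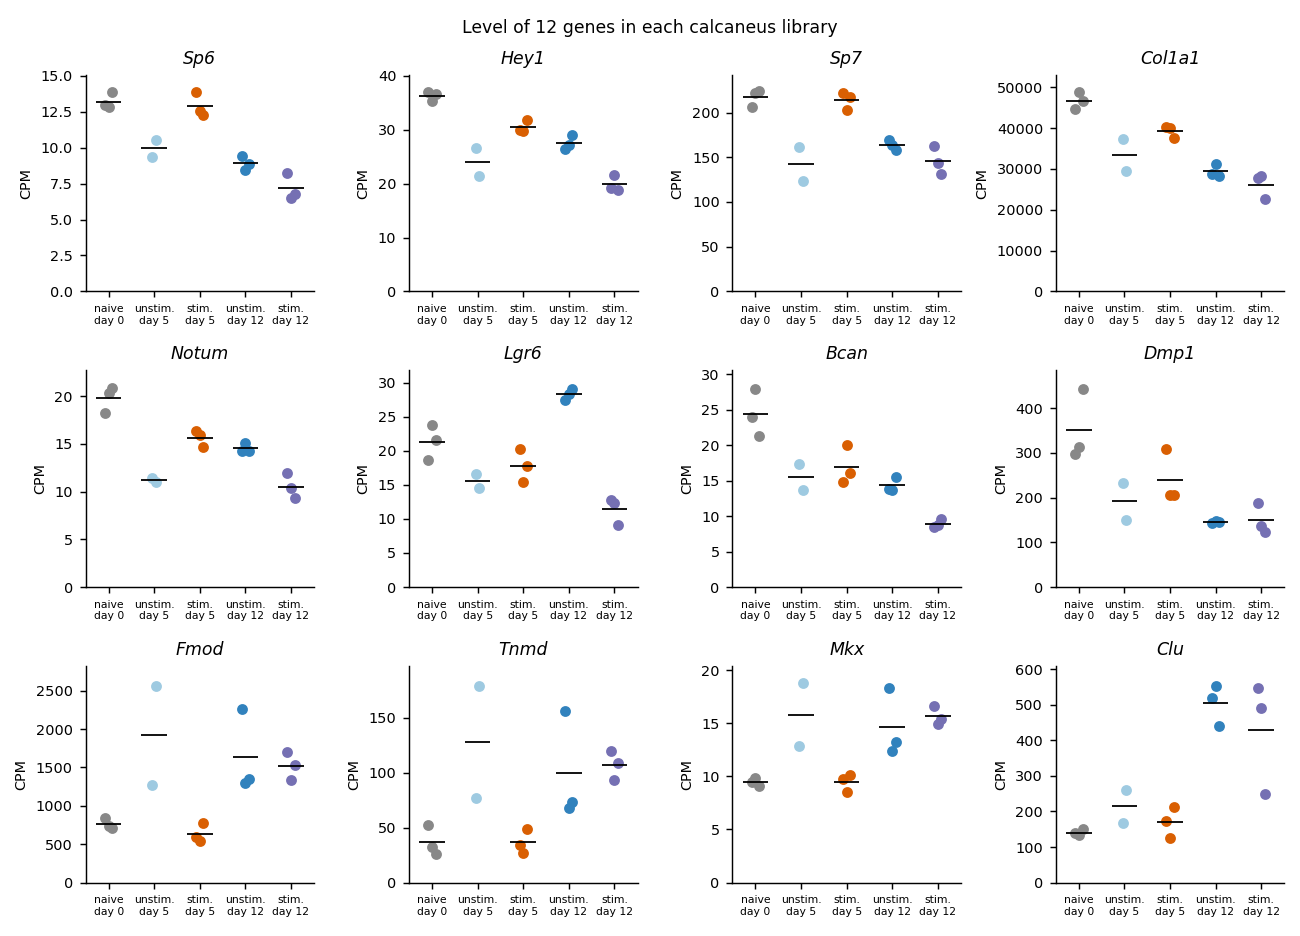
Level in CPM (vertical axis, from 0) of 12 genes in each calcaneus library; points are libraries and lines are group means. In stimulated bone the day 12 libraries lie below the day 5 ones for Sp6, Hey1, Sp7, Col1a1, Notum, Lgr6, Bcan and Dmp1 and above them for Fmod, Tnmd, Mkx and Clu.

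The gene with the smallest p was Sp6, which encodes epiprofin, a zinc finger transcription factor known from tooth and skin development. Sp6 (ENSMUSG00000038560, chromosome 11, 97013394 to 97024734 on GRCm38) stood at 13.8, 12.6 and 12.3 CPM at day 5 and 8.27, 6.47 and 6.77 CPM at day 12 (-0.85 ± 0.11, adjusted p = 0.107). All 3 libraries at day 12 were lower than any at day 5, and lower too than the unstimulated libraries of day 12, at 8.47 to 9.41 CPM. Hey1, a transcriptional repressor induced by Notch (ENSMUSG00000040289, chromosome 3, 8663359 to 8667256), stood at 29.9, 29.8 and 31.7 CPM at day 5 and 19.3, 21.7 and 18.8 CPM at day 12 (-0.61 ± 0.09, adjusted p = 0.113). Its groups did not overlap, and unstimulated bone at day 12 lay at 26.49 to 29.1 CPM. Bcan encodes brevican, a proteoglycan best known from the brain, and stood at 14.8, 19.97 and 16.1 CPM at day 5 and 8.42, 8.79 and 9.62 CPM at day 12 (-0.92 ± 0.14, adjusted p = 0.113). The groups did not overlap, and unstimulated bone lay at 13.7 to 17.3 CPM at day 5 and 13.6 to 15.50 CPM at day 12. Notum, a secreted enzyme that inactivates Wnt proteins, stood at 16.4, 15.9 and 14.7 CPM at day 5 and 11.9, 10.4 and 9.32 CPM at day 12 (-0.57 ± 0.10, adjusted p = 0.147), again without overlap. Naive bone held Sp6 at 12.8 to 13.9 CPM, Hey1 at 35.4 to 37.0, Bcan at 21.3 to 27.9 and Notum at 18.2 to 20.9. The adhesion gene Sdk2 (-0.60 ± 0.10), the scaffold gene Tanc1 (-0.47 ± 0.08) and Rhpn2 (-0.66 ± 0.11) followed. With Tmem120b (-0.58 ± 0.10), Pgbd5 (-0.70 ± 0.11) and Faxc (-1.03 ± 0.18) they completed the 10 leading lower genes, with adjusted p between 0.113 and 0.147. Of these genes, Sp6, Notum, Rhpn2 and Tmem120b overlap other genes with counts. With no strand setting stated, their reads cannot be told apart from those of an antisense partner.

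Among the higher genes the smallest p belonged to Clu, which encodes the secreted chaperone clusterin. Clu stood at 174, 125 and 212 CPM at day 5 and 546, 492 and 249.6 CPM at day 12 (1.33 ± 0.28, adjusted p = 0.223). The days did not overlap, day 12 replicate 3 being the lowest of its group, and unstimulated bone at day 12 lay at 440.5 to 554 CPM. Angpt1, a ligand of the endothelial receptor TIE2, stood at 15.3, 16.8 and 16.2 CPM at day 5 and 21.9, 20.6 and 21.8 CPM at day 12 (0.41 ± 0.09, adjusted p = 0.223), a small difference with a tight spread. The tendon genes among the 10 are Fmod and Mkx, described with the tendon genes below. Lims1, an adaptor of integrin adhesions (0.33 ± 0.07), and Cited2, a transcriptional coregulator (0.44 ± 0.10), stood slightly higher, as did the sterol hydroxylase gene Cyp27a1 (0.57 ± 0.13). Serpinb2, which encodes plasminogen activator inhibitor 2, was a gene of low counts, at 1.499, 1.66 and 2.13 CPM at day 5 and 4.36, 3.27 and 3.91 CPM at day 12 (1.13 ± 0.25, adjusted p = 0.224). The microtubule gene Map2 (0.85 ± 0.19) and the cytoskeletal gene Gas2 (0.78 ± 0.18) completed the 10, whose adjusted p lay between 0.223 and 0.24.

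Osteoblast genes stood lower at day 12. Of the 25 members, all of which passed the count filter, 24 were below 0, with a median log2 fold change of -0.35 beside 0.01 for all genes. In 13 members (background 8.99%) every day 12 library lay below every day 5 library, and in 0 members above (background 6.34%). None passed in edgeR, while DESeq2 called 6 lower, among them Col1a1, Col1a2, Col11a2, Smpd3 and Sp7. Sp7, or osterix, is the transcription factor that commits cells to the osteoblast lineage, and it stood at 222, 203 and 217 CPM at day 5 and 162, 144 and 131 CPM at day 12 (-0.55 ± 0.11, adjusted p = 0.195; ENSMUSG00000060284, chromosome 15, 102356606 to 102367182). Unstimulated bone lay at 123 to 161 CPM at day 5 and 158 to 169 CPM at day 12, and naive bone at 206 to 224 CPM, overlapping stimulated day 5. Runx2, the transcription factor upstream of it, stood at 104, 97.8 and 103 CPM at day 5 and 91.1, 76.8 and 72.6 CPM at day 12 (-0.34 ± 0.10, adjusted p = 0.317), and its groups did not overlap. Smpd3, a sphingomyelinase needed for bone mineralisation, stood at 253, 263 and 257 CPM at day 5 and 207, 168 and 143 CPM at day 12 (-0.58 ± 0.12, adjusted p = 0.223), with a steady day 5 and no overlap. The late osteoblast gene Bglap, osteocalcin, stood at 1461, 1715 and 1917 CPM at day 5 and 1473, 1135 and 1141 CPM at day 12 (-0.44 ± 0.19, adjusted p = 0.455), where day 12 replicate 1 lay among the day 5 libraries. Ibsp, bone sialoprotein, stood at 1242, 971 and 1345 CPM at day 5 and 1439.6, 909 and 863 CPM at day 12 (-0.15 ± 0.19, adjusted p = 0.777) and showed no separation. Alpl, the alkaline phosphatase of mineralising cells, stood at 473, 473 and 493 CPM at day 5 and 469.8, 389 and 294 CPM at day 12 (-0.32 ± 0.15, adjusted p = 0.48), where day 12 replicate 1 lay just under the day 5 libraries. The member above 0 was Postn, periostin (0.33 ± 0.32), named here after its value was seen.

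The osteoblast scores were 8.89, 8.84 and 8.91 log2 CPM at day 5 and 8.75, 8.53 and 8.26 at day 12. The lowest library, day 12 replicate 3, had the highest muscle fibre score. Those scores were 9.40, 7.68 and 7.58 at day 5 and 8.58, 9.70 and 10.18 at day 12. Leaving out any of the 6 libraries gave medians from -0.49 to -0.26. The median was -0.32 with the muscle score as a covariate and -0.36 with the tendon score, the latter added after seeing the data. The tendon scores of the days do not overlap, so that covariate cannot separate tissue content from day. The part of tissue content was not tested. Without day 12 replicate 1, the count of separated members was 21 of 25 (84%), beside 14.5% of all genes. Without each other library it was 13 or 14 (52% or 56%), beside 12.1% to 16.1% of all genes.

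**Figure D3:**
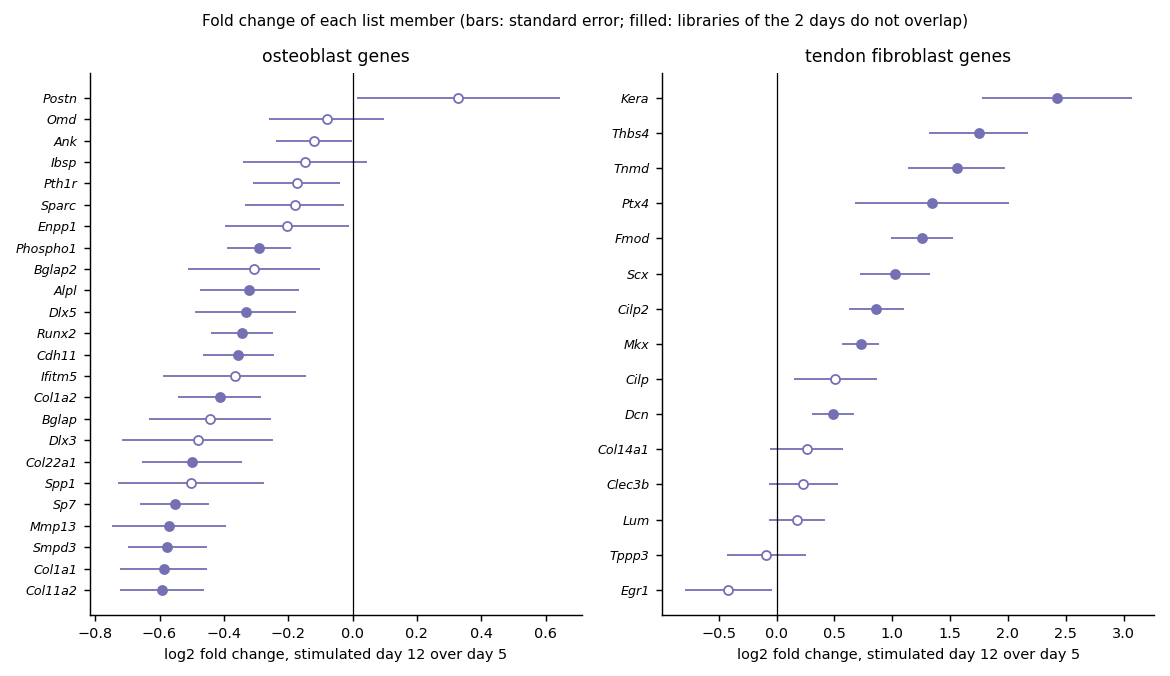
Log2 fold change of stimulated bone, day 12 over day 5 (horizontal axis), for 24 of the 25 osteoblast genes and the 15 tendon fibroblast genes; points are edgeR estimates with standard error bars, filled where the 3 libraries of each day do not overlap. All osteoblast genes shown but Postn lie below 0, and of the 15 tendon genes 13 lie above 0.

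The RUNX2 protein binds the sequence TGTGGT, or ACCACA on the other strand. The start regions of Runx2 itself and of 2 more osteoblast genes with separated libraries are shown with that motif, because these genes stood lower together. Of the 25 osteoblast genes 16 were matched by symbol in the RefSeq promoter table (GRCm38.p6), with 21 promoters of 250 bases before to 50 bases after a start. Of these promoters 6 (28.6%) held the motif on either strand, beside 16.8% of all 32851 promoters of the same length. This difference was not tested. By gene, 6 of the 16 held it, a share no smaller than that of the separated genes given next. Of the 6 tabulated genes whose libraries did not overlap, 2 held it, Runx2 with 3 matches at chr17:44814578-44814877 (minus strand) and Mmp13 with 1 at chr9:7272264-7272563 (plus strand). Col1a2, at chr6:4505368-4505667 (plus strand), is shown beside them with 0 matches. Matches are in capitals.
Runx2: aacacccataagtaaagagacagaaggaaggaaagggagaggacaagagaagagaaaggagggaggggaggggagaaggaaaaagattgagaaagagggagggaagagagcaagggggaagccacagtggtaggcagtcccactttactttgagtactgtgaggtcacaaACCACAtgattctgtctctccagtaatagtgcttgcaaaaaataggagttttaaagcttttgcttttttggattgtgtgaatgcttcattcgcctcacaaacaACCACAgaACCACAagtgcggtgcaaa
Mmp13: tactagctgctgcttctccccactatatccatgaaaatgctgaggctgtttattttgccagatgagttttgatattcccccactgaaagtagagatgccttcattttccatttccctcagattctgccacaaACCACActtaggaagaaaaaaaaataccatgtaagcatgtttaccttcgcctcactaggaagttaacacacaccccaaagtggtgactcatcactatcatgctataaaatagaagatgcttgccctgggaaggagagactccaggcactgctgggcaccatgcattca
Col1a2: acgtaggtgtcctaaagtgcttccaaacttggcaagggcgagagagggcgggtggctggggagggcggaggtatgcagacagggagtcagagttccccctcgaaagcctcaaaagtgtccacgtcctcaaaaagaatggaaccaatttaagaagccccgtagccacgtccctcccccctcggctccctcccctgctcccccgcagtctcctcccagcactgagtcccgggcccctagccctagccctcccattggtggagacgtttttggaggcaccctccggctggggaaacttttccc
A match describes these letters and not the binding of a factor.

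Matrix genes followed the osteoblast list, with which they share members, in part. Of the 22 collagen genes, 17 were below 0 (median -0.22) and 5 were separated, all lower. These were Col1a1, Col1a2 (-0.41 ± 0.13), Col11a2, Col22a1 (-0.50 ± 0.16) and Col24a1 (-0.37 ± 0.12), the last named after its value was seen. All but Col24a1 are also in the osteoblast list, so these counts are not independent of it. With day 12 replicate 2 left out, 13 of 22 (59.1%, beside 16.1% of all genes) were separated lower. When day 12 replicate 3 was left out, there were 5 lower and 4 higher. Col1a1, a type I collagen gene of bone, stood at 40306, 39987 and 37513 CPM at day 5 and 27703, 28143 and 22582 CPM at day 12 (-0.59 ± 0.14, adjusted p = 0.24). Its libraries at day 12 lay below those at day 5, and unstimulated bone lay at 29368 to 37279 CPM at day 5 and 28256 to 31248 CPM at day 12. Col11a2 stood at 1915, 2014 and 1788 CPM at day 5 and 1431, 1185 and 1177 CPM at day 12 (-0.59 ± 0.13, adjusted p = 0.223). Of the 26 collagen processing genes, 5 were separated, all lower, and the median was -0.10. They were the hydroxylase genes P4ha2 (-0.36 ± 0.11), P3h1 (-0.32 ± 0.11) and Plod3 (-0.09 ± 0.06), and the collagen chaperone genes Serpinh1 (-0.28 ± 0.13) and Fkbp10 (-0.27 ± 0.13), Plod3, Serpinh1 and Fkbp10 being named after their values were seen. After leaving out day 12 replicate 1, there were 9 lower, and without day 12 replicate 3 there were 5 lower and 6 higher. Of the 23 proteases and inhibitors 4 were separated, again all lower. Adamts9, a proteoglycan-cleaving protease (-0.45 ± 0.11, adjusted p = 0.294), was called lower by DESeq2. Mmp13, the collagenase of hypertrophic cartilage and osteoblasts, stood at 629, 723 and 701 CPM at day 5 and 575, 426 and 381 CPM at day 12 (-0.57 ± 0.18, adjusted p = 0.344). This gene is in the osteoblast list too. Mmp16 (-0.42 ± 0.14) and Timp3 (-0.20 ± 0.12), an inhibitor gene outside the naming rule, were the others. Without day 12 replicate 2, there were 7 lower and 1 higher, and without day 12 replicate 3 there were 4 lower and 3 higher.

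Of the 18 mineralisation and phosphate genes 6 were separated, all lower, with a median of -0.26. Many of them, such as Phospho1, Smpd3, Alpl and Dmp1, are also in the osteoblast or osteocyte list, so the lists are not independent. With day 12 replicate 1 left out, 11 of 18 (61.1%, beside 14.5% of all genes) were separated lower and 1 higher. Without each other library, 6 or 7 were separated lower. The 6 separated with all libraries included Phospho1, a phosphatase of matrix vesicles, at 293, 278 and 292 CPM at day 5 and 258, 234 and 213 CPM at day 12 (-0.29 ± 0.10, adjusted p = 0.365), and the phosphate transporter gene Slc20a1 (-0.39 ± 0.13, adjusted p = 0.363). Osteocyte genes had a median of -0.10, with 9 of 15 below 0, and 4 members were separated, all lower. Dmp1, a matrix protein of osteocytes, was one of them, at 308, 206 and 205 CPM at day 5 and 188, 137 and 123 CPM at day 12 (-0.68 ± 0.23, adjusted p = 0.361). The others were Slc20a1, the potassium channel gene Kcnk2 (-0.37 ± 0.12) and Gja1, which encodes the gap junction protein connexin 43 (-0.31 ± 0.13). Sost, the Wnt inhibitor that osteocytes make and that loading is known to lower, stood at 19.49, 8.57 and 18.97 CPM at day 5 and 27.6, 14.51 and 11.47 CPM at day 12 (0.19 ± 0.35, adjusted p = 0.853), and its groups overlapped. Mepe (0.25 ± 0.34, adjusted p = 0.789) and Phex (-0.10 ± 0.18, adjusted p = 0.838), further osteocyte genes, overlapped as well, and the direction of all 3 turned when single libraries were left out. These were day 12 replicate 1 for Sost and Mepe, day 5 replicate 2 for Sost, and day 5 replicate 1 or day 12 replicate 2 for Phex. When day 5 replicate 1 was left out, the median of the osteocyte list was 0.04.

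Osteoclast genes were all below 0, with a median of -0.38 over 20 genes, and 3 were separated. Ctsk, cathepsin K, stood at 1883, 1798 and 1679 CPM at day 5 and 1893, 1016 and 928 CPM at day 12 (-0.48 ± 0.23, adjusted p = 0.482). Acp5, the tartrate-resistant acid phosphatase of osteoclasts, stood at 1686, 1678 and 1763 CPM at day 5 and 1796, 1034 and 1081 CPM at day 12 (-0.39 ± 0.22, adjusted p = 0.53). In both genes day 12 replicate 1 was as high as the day 5 libraries while replicates 2 and 3 were lower. The osteoclast scores showed the same split, 6.53, 5.88 and 6.01 at day 12 against 6.53, 6.54 and 6.48 at day 5. After leaving out day 12 replicate 1, 16 of 20 members (80%) were separated, beside 14.5% of all genes, and the median was -0.61. That replicate was the one at the day 5 level, so a high count without it is no separate support. Without each other library, 3 to 6 members (15% to 30%) were separated lower, beside 12.1% to 16.1% of all genes. The 3 members separated with all libraries were the chloride exchanger gene Clcn7 (-0.22 ± 0.08, adjusted p = 0.365), Ocstamp, a gene of osteoclast fusion (-0.55 ± 0.20, adjusted p = 0.38), and Jdp2 (-0.24 ± 0.11), the last named after its value was seen. Ckb, the brain-type creatine kinase gene (-0.50 ± 0.18, adjusted p = 0.378), and the receptor gene Oscar (-0.56 ± 0.22, adjusted p = 0.413) followed in order of p. Unstimulated bone lay at 1125 to 1153 CPM at day 5 and 1056 to 1356 CPM at day 12 for Ctsk, near the 2 lower libraries. The osteoclast scores of naive bone were 6.44 to 6.79, a range that held the stimulated day 5 scores.

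Of the 15 genes that control osteoclasts, 1 was separated. Without day 12 replicate 1 there were 6 lower, and without each other library 1 to 4. The gene separated with all libraries was the vitamin D receptor gene Vdr, at 72.54, 63.7 and 66.4 CPM at day 5 and 58.6, 45.2 and 49.2 CPM at day 12 (-0.41 ± 0.12, adjusted p = 0.331). Tnfsf11, which encodes the osteoclast-inducing ligand RANKL, stood at 7.46, 9.62 and 11.54 CPM at day 5 and 8.88, 6.27 and 5.89 CPM at day 12 (-0.45 ± 0.25, adjusted p = 0.531). Tnfrsf11b, which encodes its decoy receptor osteoprotegerin, stood at 31.1, 13.3 and 16.3 CPM at day 5 and 17.2, 16.99 and 9.36 CPM at day 12 (-0.48 ± 0.29, adjusted p = 0.552). Both overlapped between the days. Efnb2, the gene of an ephrin ligand (-0.58 ± 0.25), and the RANK receptor gene Tnfrsf11a (-0.40 ± 0.16) had unadjusted p-values of 0.0383 and 0.029 in edgeR. Neither passed after adjustment, and 10.5% of all genes had an unadjusted p under 0.05.

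Wnt genes were evenly divided, with 19 of 38 above 0 and a median of -0.02; 7 were separated lower and 2 higher, the latter being the R-spondin receptor gene Lgr5 (1.23 ± 0.35) and the Wnt co-receptor gene Lrp6 (0.14 ± 0.07), named after their values were seen. This balance turned on single libraries: without day 12 replicate 3 there were 7 lower and 10 higher, and without day 12 replicate 2 there were 12 lower and 2 higher. The 4 with the smallest p were all lower, and DESeq2 called these 4. Besides Notum they were Apcdd1, a membrane inhibitor of Wnt signals, at 47.6, 44.54 and 52.4 CPM at day 5 and 35.2, 34.3 and 33.97 CPM at day 12 (-0.48 ± 0.09, adjusted p = 0.195), and Lrp4, the sclerostin co-receptor of bone (-0.31 ± 0.08, adjusted p = 0.289). The last was Lgr6, a receptor for R-spondins, which enhance Wnt signals, at 20.3, 15.4 and 17.8 CPM at day 5 and 12.8, 12.4 and 9.14 CPM at day 12 (-0.64 ± 0.14, adjusted p = 0.223; ENSMUSG00000042793, chromosome 1, 134983301 to 135105276). Notum, Apcdd1 and Lrp4 act against Wnt signals, and Lgr6 acts for them. The target genes Axin2 (0.03 ± 0.16) and Lef1 (-0.13 ± 0.22), named for their role after the values were seen, overlapped between the days.

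Of the 20 FGF, hedgehog and Notch genes 16 were below 0 (median -0.26). Of these 5 were separated lower and 0 higher. Without day 5 replicate 3, 10 of 20 (50%, beside 13.9% of all genes) were separated lower, and without day 12 replicate 1 or 2 there were 9 each. Among Notch genes, Heyl, another repressor of the Hey family, stood at 34.7, 26.96 and 26.6 CPM at day 5 and 20.48, 20.8 and 15.8 CPM at day 12 (-0.63 ± 0.14, adjusted p = 0.223). DESeq2 called Hey1 and Heyl lower, and the receptor gene Notch1 was separated lower too (-0.23 ± 0.14, adjusted p = 0.556). Heyl is also a gene of vascular mural cells, and the pericyte and smooth muscle list had a median of -0.36; the part of those cells was not tested. Gli1, both a transducer and a target of hedgehog signals and a marker of osteoprogenitors, stood at 39.2, 44.7 and 36.6 CPM at day 5 and 27.1, 33.47 and 23.6 CPM at day 12 (-0.52 ± 0.13, adjusted p = 0.301). Its fellow target Ptch1 stood at 57.6, 54.3 and 44.1 CPM at day 5 and 45.6, 42.50 and 37.2 CPM at day 12 (-0.32 ± 0.12, adjusted p = 0.409), with 1 library of overlap. The receptor genes Fgfr1 (-0.30 ± 0.11, adjusted p = 0.374) and Fgfr3 (-0.42 ± 0.15, adjusted p = 0.373) were below 0, the former separated and the latter not. Notch1, Ptch1 and Fgfr1 are outside the naming rule and were chosen after their values were seen.

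BMP and TGF-beta genes stood on both sides of 0, with 6 of 38 separated higher and 6 lower (median 0.06). With day 12 replicate 3 left out, there were 11 higher and 7 lower, without day 5 replicate 1 there were 10 and 6. The ligand gene Bmp7 stood at 13.02, 13.9 and 11.6 CPM at day 5 and 9.09, 7.37 and 7.38 CPM at day 12 (-0.69 ± 0.14, adjusted p = 0.223). Smad6, an inhibitory SMAD induced by BMP, stood at 39.9, 33.8 and 38.4 CPM at day 5 and 28.9, 29.6 and 25.53 CPM at day 12 (-0.42 ± 0.09, adjusted p = 0.223). Smad7, the other inhibitory SMAD, stood -0.37 ± 0.09, and the target gene Id1 stood at 65.4, 59.50 and 55.7 CPM at day 5 and 46.9, 54.1 and 36.47 CPM at day 12 (-0.39 ± 0.15, adjusted p = 0.42). On the higher side were Chrdl1, which encodes a secreted BMP antagonist, at 35.46, 26.1 and 36.7 CPM at day 5 and 53.9, 38.9 and 51.2 CPM at day 12 (0.55 ± 0.14, adjusted p = 0.294), and the receptor gene Bmpr1b (1.36 ± 0.36, adjusted p = 0.311).  DESeq2 called Bmp7 and Smad6 lower and Chrdl1 and Bmpr1b higher. Id1 and Bmpr1b were named after their values were seen. Of the 18 IGF and growth hormone genes 10 were below 0 (median -0.07), with 4 separated lower and 1 higher. Of the 16 imprinted growth genes 11 were below 0 (median -0.07), with 3 separated lower and 2 higher. Without day 12 replicate 3, the former had 4 lower and 4 higher and the latter 3 lower and 4 higher. In both lists, Igf2, the imprinted gene of a growth factor of the insulin family, stood at 154, 178 and 127 CPM at day 5 and 80.8, 119 and 99.8 CPM at day 12 (-0.62 ± 0.19, adjusted p = 0.344). Stc1, a regulator of the IGF-releasing protease PAPP-A (-0.66 ± 0.22, adjusted p = 0.361), and Dlk1, an imprinted gene of progenitor cells (-0.71 ± 0.18, adjusted p = 0.298), were separated lower. Cdkn1c, the imprinted cell cycle inhibitor gene, was separated higher (0.27 ± 0.07, adjusted p = 0.311).

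**Figure D4:**
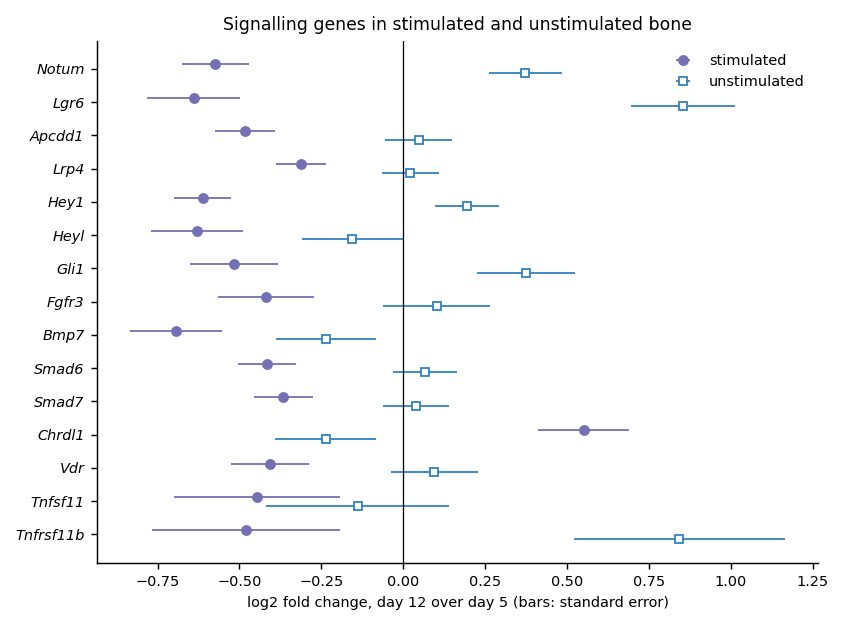
Log2 fold change of day 12 over day 5 (horizontal axis) for 15 signalling genes in stimulated bone (filled circles) and unstimulated bone (open squares), with standard error bars. In stimulated bone 14 of the 15 lie below 0, Chrdl1 being the exception. Most were picked as the smallest-p members of their lists in stimulated bone, so this share does not describe the lists. Above 0 stood 19 of 38 Wnt genes and 21 of 38 BMP and TGF-beta genes. In the other lists these were 4 of 20 FGF, hedgehog and Notch genes and 4 of 15 genes that control osteoclasts. In unstimulated bone Lgr6 and Tnfrsf11b lie farthest above 0.

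Tendon fibroblast genes stood higher at day 12: 13 of 15 were above 0, the median was 0.73, and 9 were separated higher and 0 lower. DESeq2 called 6 of them higher, Kera, Thbs4, Tnmd, Fmod, Cilp2 and Mkx. Fmod, fibromodulin, a small proteoglycan that guides collagen fibril assembly (ENSMUSG00000041559, chromosome 1, 134037254 to 134048277), stood at 593, 545 and 778 CPM at day 5 and 1699, 1344 and 1533 CPM at day 12 (1.26 ± 0.27, adjusted p = 0.223). Tnmd, tenomodulin, a membrane protein of mature tendon cells, stood at 34.2, 26.6 and 48.4 CPM at day 5 and 119, 93.7 and 109 CPM at day 12 (1.56 ± 0.42, adjusted p = 0.316). Thbs4, a matrix glycoprotein of tendon and muscle, stood at 307, 165 and 317 CPM at day 5 and 883, 1139 and 629 CPM at day 12 (1.75 ± 0.43, adjusted p = 0.294). In each of these the lowest day 12 library was above the highest day 5 one. The transcription factor genes of tendon showed the same order. Mkx stood at 9.74, 8.57 and 10.1 CPM at day 5 and 16.6, 14.98 and 15.4 CPM at day 12 (0.73 ± 0.16, adjusted p = 0.223). Scx, scleraxis, stood at 9.51, 6.71 and 9.42 CPM at day 5 and 17.97, 19.7 and 14.4 CPM at day 12 (1.02 ± 0.30, adjusted p = 0.339). Kera, keratocan, a proteoglycan of the same family as Fmod, stood at 9.35, 5.01 and 15.3 CPM at day 5 and 61.45, 35.7 and 61.9 CPM at day 12 (2.42 ± 0.65, adjusted p = 0.317). Kera, Scx and Cilp2 were named after their values were seen. The day 5 levels of Tnmd lay within the naive range and below both unstimulated groups. Unstimulated bone held Tnmd at 76.6 to 179 CPM at day 5 and 68.1 to 156 CPM at day 12, and naive bone at 25.8 to 52.6 CPM. For Fmod, unstimulated bone held 1269 to 2567 CPM at day 5 and 1292 to 2258 CPM at day 12, and naive bone 709 to 841 CPM.

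The other 6 tendon members overlapped between the days. Tppp3, a gene of the tendon sheath (-0.09 ± 0.34), and Egr1, a mechanosensitive early gene (-0.42 ± 0.38), were the 2 below 0, named after their values were seen. The tendon scores were 6.29, 5.98 and 6.34 at day 5 and 7.08, 7.23 and 6.72 at day 12, and leaving out any library gave medians from 0.66 to 0.78. With the muscle score as a covariate the median was 0.59. How much tendon was left on each bone was not tested, since its defining markers are the genes described.

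Cartilage genes had a median of -0.06 over 21 genes, 12 of them below 0, and 1 was separated, lower. When day 12 replicate 1 was left out, 11 of 21 (52.4%, beside 14.5% of all genes) were separated lower. Without each other library, 1 to 3 were separated lower and 0 to 3 higher. The single one was Cytl1, a secreted factor of chondrocytes, at 164, 119 and 196 CPM at day 5 and 94.8, 91.4 and 56.9 CPM at day 12 (-0.98 ± 0.31, adjusted p = 0.353). Col10a1, the collagen gene of hypertrophic chondrocytes, stood at 509, 813 and 654 CPM at day 5 and 547, 322 and 176 CPM at day 12 (-0.92 ± 0.33, adjusted p = 0.392), with day 12 replicate 1 inside the range of day 5. Without that replicate the median of the list was -0.62, and it was 0.16 without day 12 replicate 3 and 0.19 without day 5 replicate 2. The transcription factor gene Sox5 (-0.55 ± 0.31) and the collagen gene Col11a1 (-0.33 ± 0.14) were below 0 and overlapped.

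Muscle fibre genes were all above 0, with a median of 1.15 over 25 genes, and 1 was separated. That count rested on single libraries: without day 5 replicate 1, 23 of 25 (92%, beside 14% of all genes) were separated higher, and without day 12 replicate 1, 21 of 25 (84%, beside 13.3% of all genes). Acta1 stood at 5027, 1667 and 1635 CPM at day 5 and 2741, 5782 and 8615 CPM at day 12 (1.04 ± 1.11, adjusted p = 0.733). Day 5 replicate 1 was as rich in it as day 12 replicate 2, so that the spread within groups was as large as the difference. The separated member was Myl2, the light chain gene of slow and cardiac myosin, at 19.3, 15.48 and 11.54 CPM at day 5 and 41.48, 89.2 and 83.2 CPM at day 12 (2.21 ± 1.17, adjusted p = 0.518). After leaving out day 5 replicate 1, the list median was 2.08, and without day 12 replicate 3 it was 0.74. The table also holds a row for eYFP, the fluorescent tag of the channelrhodopsin allele, at 419, 297 and 376 CPM at day 5 and 369, 573 and 568 CPM at day 12 (0.47 ± 0.28, adjusted p = 0.548). In unstimulated bone it lay at 530.2 to 746 CPM at day 5 and 477 to 618 CPM at day 12. Naive bone held eYFP at 760, 574 and 331 CPM in replicates 1 to 3, whose muscle fibre scores were 9.02, 8.35 and 2.42. The 2 stimulated days overlapped in eYFP. The row for Cre held 2 to 8 counts in each stimulated bone library and was left out by the count filter. Genes of muscle progenitors and regeneration were above 0 in 10 of 13 (median 0.93), with 1 separated in each direction, and without day 5 replicate 1, 9 of 13 (69.2%, beside 14% of all genes) were separated higher. Against the list, Cdh15 was lower in every day 12 library, at 51.99, 49.1 and 39.7 CPM at day 5 and 33.2, 30.99 and 37.8 CPM at day 12 (-0.47 ± 0.12, adjusted p = 0.298). The fusion gene Mymk (1.41 ± 0.70) was separated higher.

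Marrow lists differed from each other. Megakaryocyte genes had a median of 0.80, with 11 of 12 above 0 and 4 separated higher. Treml1, a receptor gene of platelets, stood at 6.75, 7.76 and 10.7 CPM at day 5 and 20.2, 10.7 and 15.9 CPM at day 12 (0.89 ± 0.27, adjusted p = 0.344). Gp6, the platelet collagen receptor gene, stood at 3.98, 4.24 and 4.57 CPM at day 5 and 10.8, 5.56 and 7.95 CPM at day 12 (0.92 ± 0.29, adjusted p = 0.344). Gp1ba (0.88 ± 0.33) and Gp5 (0.88 ± 0.33), further platelet receptor genes, were the other separated members, Gp5 being named after its value was seen. For Treml1 the lowest day 12 library was barely above the highest day 5 one. Day 12 replicate 1 was the highest library in both. The scores were 4.12, 4.27 and 4.47 at day 5 and 5.44, 4.46 and 4.94 at day 12. Without day 12 replicate 1, the median was 0.49. With day 12 replicate 2 left out, the separated members were 10 of 12 (83.3%, beside 14.5% of all genes), and without day 5 replicate 3 they were 9 (75%, beside 12.9%). Neutrophil genes were above 0 in 19 of 20 (median 0.48). Of these 1 was separated, and 10 were without day 5 replicate 3 and 10 without day 12 replicate 2. The separated one was Retnlg, at 45.6, 47.8 and 89.1 CPM at day 5 and 151, 90.96 and 169 CPM at day 12 (1.17 ± 0.34, adjusted p = 0.337). T and NK cell genes were all above 0 (median 0.50) and none was separated, while without day 12 replicate 2, 9 of 12 (75%, beside 14.5% of all genes) were separated higher. In the B lineage list (median -0.05) Jchain, the joining chain of secreted antibodies, stood at 10.3, 12.6 and 9.42 CPM at day 5 and 43.7, 14.9 and 36.9 CPM at day 12 (1.56 ± 0.43, adjusted p = 0.318). The precursor genes Vpreb1 (-0.69 ± 0.41), Rag2 (-0.73 ± 0.58) and Igll1 (-0.59 ± 0.54) were separated lower, the last 2 named after their values were seen. DESeq2 called Retnlg and Jchain higher. Erythroid genes went the other way, 18 of 19 below 0 with a median of -0.75, and none was separated. When day 12 replicate 3 was left out, 17 of 19 (89.5%, beside 13.6% of all genes) were separated lower, and without day 5 replicate 1, 12 of 19 (63.2%, beside 15.2% of all genes). With the tendon score as a covariate, whose values do not overlap between the days, their median was 0.22. Trim10 led them, at 27.02, 47.7 and 51.6 CPM at day 5 and 18.8, 10.1 and 27.7 CPM at day 12 (-1.16 ± 0.46, adjusted p = 0.431).

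Schwann cell and nerve genes were all below 0 (median -1.22), and this rested on day 5 replicate 2. The scores were 4.59, 6.84 and 3.62 log2 CPM at day 5 and 4.95, 4.11 and 4.30 at day 12. Without that replicate the list median was 0.36. Smooth muscle and pericyte genes were below 0 in 10 of 11 (median -0.36), led by Mcam (-0.48 ± 0.19, adjusted p = 0.426) and the contractile gene Cnn1. Cnn1 stood at 54.8, 15.4 and 6.56 CPM at day 5 and 1.64, 6.94 and 3.03 CPM at day 12 (-2.71 ± 1.13, adjusted p = 0.455), where day 5 replicate 1 was the highest. Endothelial genes were below 0 in 15 of 16 (median -0.19). None of either list was separated with all libraries. After leaving out day 12 replicate 2, 12 of 16 (75%, beside 16.1% of all genes) endothelial genes and 8 of 11 (72.7%, beside 16.1% of all genes) smooth muscle and pericyte genes were separated lower. Without day 5 replicate 3, there were 6 and 5. Adipocyte genes were below 0 in 11 of 13 (median -0.20), the separated one being Pck1 (-0.87 ± 0.47). With day 5 replicate 2 left out, there were 6 lower and without day 12 replicate 3 there were 5. Lep, the leptin gene, stood at 24.2, 13.8 and 30.3 CPM at day 5 and 12.01, 7.49 and 16.3 CPM at day 12 (-0.93 ± 0.45, adjusted p = 0.484). Keratinocyte scores were between -0.15 and 0.33 log2 CPM in all 6 libraries, Dmkn (0.67 ± 0.59) being separated. Macrophage genes had a median of 0.28 with 1 of 18 separated (Mrc1, 0.29 ± 0.14), haematopoietic progenitor genes 0.05 and marrow stroma genes 0.05, both with 0 separated. Mast cell, basophil and eosinophil genes had a median of 0.44 with 1 of 12 separated higher (Fcer1a, 0.89 ± 0.50). Macrophage genes separated higher numbered 7 without day 5 replicate 3, 6 without day 12 replicate 2 and 7 without day 12 replicate 3.

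Genes of oxidative phosphorylation were all above 0 (median 0.29, 26 genes), and 7 were separated, all higher. When day 5 replicate 1 was left out, 22 of 26 (84.6%, beside 14% of all genes) were separated higher, and without day 12 replicate 1, 15 of 26 (57.7%, beside 13.3% of all genes). Cox5b, a subunit gene of cytochrome oxidase, stood at 91.4, 76.8 and 84.47 CPM at day 5 and 102, 105 and 119 CPM at day 12 (0.37 ± 0.13, adjusted p = 0.387). Atp5c1, a subunit gene of ATP synthase, stood at 153, 107 and 128 CPM at day 5 and 154, 172 and 221 CPM at day 12 (0.49 ± 0.18, adjusted p = 0.394). Muscle fibres are rich in these genes. The list median was 0.22 with the muscle score as a covariate and 0.03 with the tendon score. The tendon scores of the days do not overlap, so the latter cannot separate tissue content from day. The part of muscle or tendon content was not tested. The 13 mitochondrial genome genes had a median of 0.14. Glycolysis and hypoxia genes were above 0 in 18 of 24 (median 0.28), with 4 separated lower and 0 higher. After leaving out day 5 replicate 1, 10 of 24 (41.7%, beside 14% of all genes) were separated higher, and without day 12 replicate 1, 9 of 24 (37.5%, beside 13.3% of all genes). The lower ones were the glycolytic genes Pfkl (-0.29 ± 0.10), Pfkp (-0.21 ± 0.09) and Hk1 (-0.20 ± 0.11, named after its value was seen) and Vegfa. Vegfa, the vascular growth factor gene, stood at 98.97, 99.03 and 94.1 CPM at day 5 and 77.6, 83.7 and 77.6 CPM at day 12 (-0.29 ± 0.11, adjusted p = 0.408). Cell cycle genes were all below 0 (median -0.25, 30 genes) without a separated member. Without day 12 replicate 3, 12 of 30 (40%, beside 13.6% of all genes) were separated lower, and without day 5 replicate 1, 9 of 30 (30%, beside 15.2% of all genes). The list had a median of 0.31 under the tendon score covariate, which cannot separate tissue content from day. The proliferation marker Mki67 stood at 134, 207 and 209 CPM at day 5 and 113, 77.2 and 152 CPM at day 12 (-0.68 ± 0.30, adjusted p = 0.46). Clock genes were above 0 in 15 of 18, and 2 were separated higher, or 7 without day 12 replicate 1. Among them was Bhlhe41, a repressor within the clock, at 43.7, 36.7 and 31.7 CPM at day 5 and 45.7, 59.1 and 46.1 CPM at day 12 (0.43 ± 0.13, adjusted p = 0.344). The hour of collection is not in the labels used here.

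Genes often read as marks of mechanical loading had medians near 0. Of 27 immediate early genes 16 were below 0 (median -0.12), 1 was separated higher (Klf6, 0.05 ± 0.08, named after its value was seen) and 0 lower. Of the YAP/TEAD and SRF targets 9 of 20 were below 0 (median 0.02), with 0 separated. Of 16 channel genes 3 were separated lower, Kcnk2, Gja1 and Trpv4, a calcium channel gene of chondrocytes and osteoblasts (-0.50 ± 0.19, adjusted p = 0.404). Higher was 1 gene, Panx1, an ATP release channel, at 14.1, 13.50 and 13.53 CPM at day 5 and 16.4, 18.1 and 19.2 CPM at day 12 (0.39 ± 0.14, adjusted p = 0.386). Heat shock genes (median 0.08), ribosomal protein genes (0.09), glucocorticoid-responsive genes (0.03) and metallothionein and zinc genes (-0.10) held 0 separated members. For ribosomal protein genes this rested on 1 library: without day 5 replicate 3, 23 of 35 (65.7%, beside 12.9% of all genes) were separated higher. Endoplasmic reticulum genes had a median of -0.01, interferon-stimulated genes 0.10, inflammatory cytokines 0.20, acute-phase and complement genes 0.11, lipid genes -0.11 and limb patterning genes 0.02. The separated members of these lists, partly outside the naming rule, were as follows. For the endoplasmic reticulum they were Dnajb9 (0.24 ± 0.08) and Herpud1 (0.17 ± 0.08) higher and Asns (-0.40 ± 0.14) and Ern1 (-0.14 ± 0.10) lower. With day 12 replicate 1 left out, the lower ones numbered 9. Ifih1 (0.26 ± 0.10), Ifit2 (0.27 ± 0.11) and Zbp1 (0.49 ± 0.24) were higher among interferon-stimulated genes, which numbered 10 without day 12 replicate 2, and Ccl5 (0.81 ± 0.33) and Cxcl9 (0.90 ± 0.57) among cytokines. Of the lipid genes Lss (-0.32 ± 0.16), Srebf1 (-0.16 ± 0.08) and Idi1 (-0.23 ± 0.14) were lower. C1qtnf3, a secreted protein of the adiponectin family (2.27 ± 0.83), led the acute-phase list through day 12 replicate 2, at 8.27, 74.9 and 6.20 CPM in the 3 libraries of that day.

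**Figure D5:**
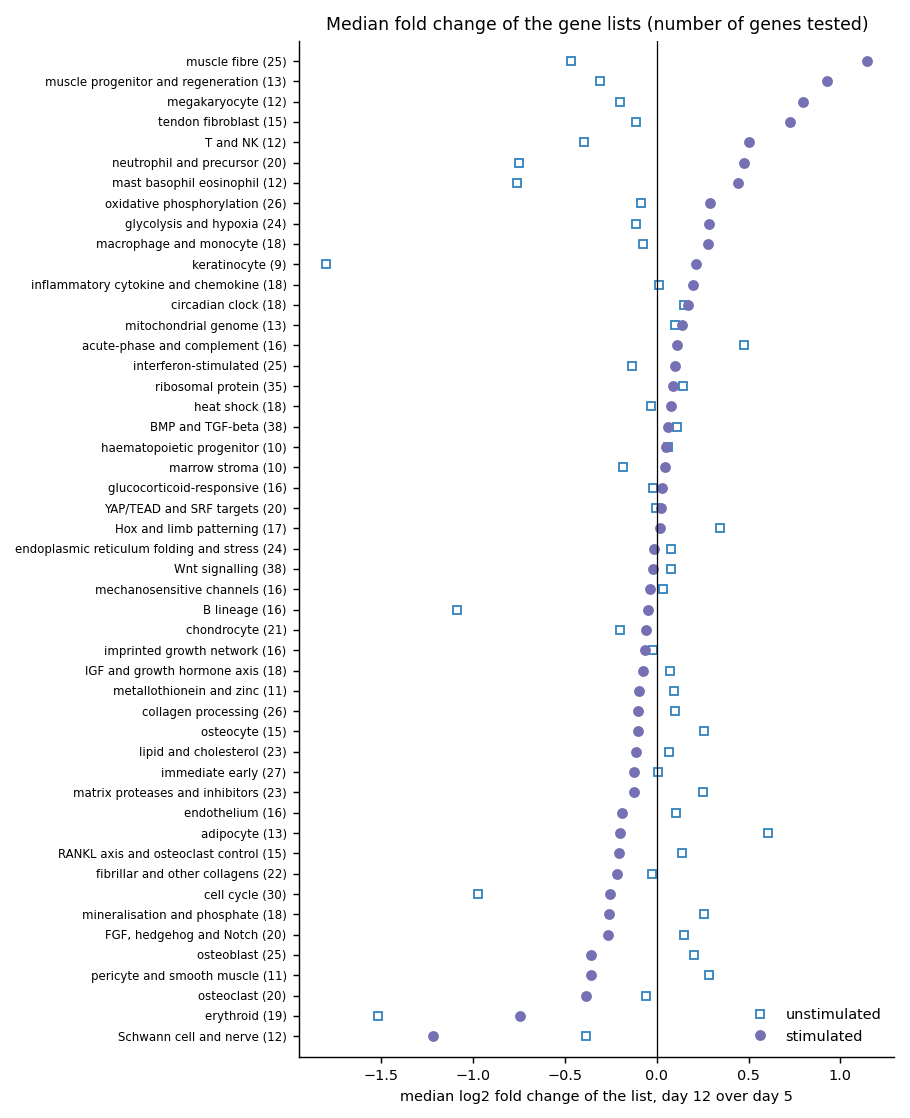
Median log2 fold change of day 12 over day 5 (horizontal axis) for each gene list, with the number of genes tested, in stimulated bone (filled circles) and unstimulated bone (open squares). In stimulated bone the osteoblast list lies at -0.35 and the tendon list at 0.73; in unstimulated bone they lie at 0.20 and -0.11.

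The same interval in unstimulated bone was set beside these results. There too 0 of 18851 genes (0%) passed in edgeR, with 2375 (12.6%) at an unadjusted p under 0.05. Of these 1132 (6%) were higher and 1243 (6.59%) lower at day 12. The genes with the smallest p were Tst, a mitochondrial sulfurtransferase gene (0.79 ± 0.13, adjusted p = 0.209), Dixdc1, a positive regulator of Wnt signals (0.66 ± 0.11), and the ligand gene Wnt10b (0.75 ± 0.13) above 0. Below 0 they were the protease gene Tmprss3 (-1.79 ± 0.28), the cytokinesis gene Prc1 (-1.13 ± 0.19) and Fbxo34 (-0.53 ± 0.09). Wnt10b, which promotes osteoblast formation, stood at 14.02 to 17.3 CPM at day 5 and 24.1 to 29.7 CPM at day 12 without stimulation. With it the gene stood at 21.50, 21.8 and 21.55 CPM at day 5 and 24.1, 23.1 and 18.4 CPM at day 12. The unstimulated day 5 group holds 2 samples, and the summed pair among them has a keratinocyte score of 3.80 log2 CPM where the other bone libraries lie at 0.81 or lower.

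Whether the interval differed with stimulation was tested by the interaction, where again 0 genes (0%) passed. At an unadjusted p under 0.05 there were 2008 (10.7%), 893 (4.74%) above 0 and 1115 (5.91%) below. The smallest p belonged to Lgr6, whose interaction was -1.49 ± 0.21 (adjusted p = 0.222). Without stimulation it stood at 14.6 to 16.7 CPM at day 5 and 27.4 to 29.1 CPM at day 12, the opposite order to that in stimulated bone. Naive bone held Lgr6 at 18.7 to 23.8 CPM. Notum (-0.95 ± 0.15, adjusted p = 0.28) and Hey1 (-0.81 ± 0.13, adjusted p = 0.28) came next below 0. Unstimulated bone held Notum at 10.997 to 11.46 CPM at day 5 and 14.2 to 15.1 CPM at day 12. Above 0 were Frat2, an inhibitor of the kinase GSK3 (1.07 ± 0.19), Serpinb2 (1.74 ± 0.37) and the tubulin gene Tuba4a (1.04 ± 0.23). Sp7 had an interaction of -0.75 ± 0.16 (adjusted p = 0.354) and Fmod 1.49 ± 0.39 (adjusted p = 0.43). The osteoblast list had a median interaction of -0.61 with 24 of 25 members below 0, beside medians of -0.35 in stimulated and 0.20 in unstimulated bone. The tendon list had 0.56, beside 0.73 and -0.11. For muscle fibre genes the value was 1.67, and for erythroid genes 0.87, whose medians were -0.75 and -1.52. In cell cycle genes both intervals stood below 0, -0.25 with and -0.97 without stimulation. The median interaction of all genes was -0.02.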

How the data were processed

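Whole-tissue RNA of calcaneus was sequenced as poly-A libraries, per the labels' protocols. The authors deposited 1 table of counts per gene, read here as estimated counts because RSEM is among the tools; all its values were whole numbers (0 were not). The submitters' processing notes name cutadapt 2.3, STAR 2.7.8a, RSEM 1.3.3, FastQC 0.11.8, MultiQC 1.7 and the build GRCm38, without roles or order. The annotation is not given in the sources used here, nor is the strand setting, and 55154 of 55426 gene identifiers (99.5%) matched the reference annotation. A gene that overlaps another, or has a near-identical copy, can share its reads: examples among the genes named are Notum, Sp6, Rhpn2, Tmem120b, Serpinb2, Gas2, Runx2, Acta1, Smpd3, Phospho1, Gli1, Igf2, Col10a1, Kcnk2, Slc20a1, Adamts9 and Tuba4a.

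The 14 bone libraries of 5 groups, after summing the near-identical pair, were fitted together in edgeR 4.0.16 in R 4.3.3. Scaling was by TMM, genes were kept by filterByExpr (at least 10 counts, total 15), and the test was the robust quasi-likelihood one with a Benjamini-Hochberg threshold of 0.05. The days were contrasted within stimulated bone, within unstimulated bone and between the 2. CPM for plots and scores used the TMM-scaled totals, with a prior count of 2 on the log2 scale. DESeq2 1.42.0, limma 3.58.1, other scalings and filters, other sets of libraries, composition covariates and dropping single libraries were alternatives, and the fit was tested on simulated data. Pairing by replicate number between the stimulated days was not seen, though so few libraries cannot exclude it. Pairing of stimulated with unstimulated bone of the same day was not tested. The main fit held no pairing, so the interaction treats all libraries as independent. Sex-linked genes gave the same sex in 14 of 14 libraries.

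Genes named are, per direction, the 10 of smallest p among those with a mean of at least 1 CPM and no overlap between days, without predicted, sex-linked and receptor segment genes, 15 genes set for their role in bone and muscle, up to 4 of each list by p, and the 3 leading genes of the other contrasts; others are said to be chosen after their values were seen. The genes and lists were chosen with earlier results of these data known. Some results that fall under this rule are not reported here.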

Additional observations from a re-analysis of the deposited data

How the results depend on the processing

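The count of genes past the threshold in stimulated bone was 0 under every alternative and without each library in turn (0 to 0), except 123 with DESeq2 and 1 with the near-identical pair kept as 2 libraries. With the replicate number as a block it was 0, both in all 15 libraries (2241 genes at an unadjusted p under 0.05) and in the 6 stimulated ones (1472). Deviations from the mean of the day had correlations of -0.355, 0.0339 and 0.0191 between same-numbered libraries. Pairing by number between the stimulated days was thus not seen, but so few libraries cannot exclude it. The correlations did not cover stimulated against unstimulated libraries of the same number and day, a pairing that was not tested. In unstimulated bone, where the count was 0, it was 240 with DESeq2, 19 with limma-voom, 1 without the naive libraries, 14 with the pair kept as 2 libraries, 144 with the replicate block and the pair kept, 1 with the marrow score and 150 with the tendon score as a covariate, and 0 to 20 when libraries were left out, 20 being without unstimulated day 5 replicate 3. For the interaction it was 59 with DESeq2, 1 without a count filter, 1 with the pair kept as 2 libraries, and 0 to 3 when libraries were left out. The cause of these differences was not tested.

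Of the named genes, none of which passed, the direction of the log2 fold change turned in these cases. When stimulated libraries were left out, Sost lay between -0.27 and 0.42, turning without day 5 replicate 2 and day 12 replicate 1. Mepe lay between -0.24 and 0.50, turning without day 12 replicate 1. Phex lay between -0.26 and 0.042, turning without day 5 replicate 1 and day 12 replicate 2. Axin2 lay between -0.025 and 0.088, turning without day 5 replicate 2. Lef1 lay between -0.22 and 0.034, turning without day 12 replicate 2. Postn lay between -0.11 and 0.63, turning without day 12 replicate 2. Tppp3 lay between -0.37 and 0.082, turning without day 5 replicate 2 and day 12 replicate 3. With the muscle score as a covariate the value was Acta1 -0.23, Axin2 -0.062 and Lef1 0.0037. With the tendon score as a covariate, added after seeing the data, the value was Acta1 -0.43, Mki67 0.093, eYFP -0.18, Axin2 -0.30, Hk1 0.023, Igll1 0.59, Klf6 -0.040, Lef1 0.30, Postn -0.30, Rag2 0.52 and Vpreb1 0.21. Tendon scores of the stimulated days do not overlap, so these values cannot separate tissue content from day. In 80 cases a gene that missed the threshold passed it, 54 of them with DESeq2. List medians moved by less than the spread between libraries in 898 cases and by more in 33.

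Depth limits the genes of low counts such as Serpinb2.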
